A study of Mus musculus with 5 samples.

Results

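Splicing factor genes were taken as the genes whose listed symbol begins with Snrp, Sf3, Prpf, Sfrs, Srsf or Hnrn in any of the 4 deposited lists of regions called against IgG. The rule found 59 symbols, of which Sfrs3 and Srsf3 share a start and were counted together, leaving 58 genes among 17024 listed symbols. By symbol prefix they comprised 10 snRNP core protein genes, 6 SF3 genes, 11 PRPF genes, 14 SR protein genes and 17 hnRNP genes. The prefix alone placed Sfrs12ip1 and Srsf8 in the SR group, and RefSeq now names them Srek1ip1 and Sfswap. Chromatin immunoprecipitation sequencing (ChIP-seq) had mapped H3K4me3, trimethylation of histone H3 typical of active promoters, and STAT3, a cytokine-activated transcription factor, in dendritic cells. The groups were STAT3 in SAHA, STAT3 in diluent, H3K4me3 in SAHA, H3K4me3 in diluent and IgG in diluent, with 1 library each. All cells came from bone marrow of female C57BL/6 mice aged 10 weeks, cultured over 7 days in IL-4 and GM-CSF (10 ng/mL of either cytokine) and selected for CD11c to a labelled purity of 95%. They then received SAHA (vorinostat, an inhibitor of histone deacetylases, at a dose labelled 500 nm) or diluent for 12 hours. The sources used here do not give how many mice contributed to a library. The only IgG library came from diluent cells.

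Introns are removed from transcripts by the spliceosome, a machine built from small nuclear ribonucleoprotein particles (snRNPs) on each transcript. The U1 and U2 particles recognise the 5′ splice site and the branch point, and the U4/U6.U5 tri-snRNP then joins and is rearranged into the catalytic form. SR proteins mostly bind exons and favour the use of nearby splice sites, whereas hnRNP proteins coat nascent transcripts and often oppose that use. These genes are active in nearly all cell types, and their promoters are typically rich in CpG and marked by H3K4me3.

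Filtered tags numbered 17810183 for STAT3 in SAHA, 25013431 for STAT3 in diluent, 21428355 for H3K4me3 in SAHA, 22420200 for H3K4me3 in diluent and 18925827 for IgG. By their headers, the H3K4me3 libraries shared a flow cell, and the STAT3 and IgG libraries shared a different flow cell. The STAT3 lists held 8552 regions in SAHA and 3507 in diluent, and the H3K4me3 lists held 25723 in SAHA and 22255 in diluent. Of 12 dendritic cell markers, 11 had an H3K4me3 region within 5 kb of a listed start in both conditions, and the exception, Spi1, was not listed under that symbol. No T cell marker of 4 and no B cell marker of 4 had one in either condition. Only 1 of these T cell markers and 2 of these B cell markers were listed, and the others could not be scored. In both conditions one was present at 5 of 6 macrophage and monocyte symbols, and the exception, Adgre1, is another name of Emr1, which had one. One was also present at 3 of 5 granulocyte and mast cell markers (3 listed), 2 of 4 erythroid markers (2 listed) and 1 of 3 NK cell markers (2 listed). Of 7 non-haematopoietic markers (3 listed), 2 had one in SAHA and 0 in diluent, and their part in the results was not tested. With 1 library per group, differences between SAHA and diluent have no replicate check, and no p-value was computed. Intervals below are 95% and cover counting error only.

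Every splicing factor gene had an H3K4me3 region within 5 kb of a listed start, 58 of 58 in SAHA and 58 of 58 in diluent, where 80.5% of all listed genes had one in SAHA, 79.4% in diluent and 78.2% in both. A gene entered only by being listed against some region, so these shares are a description. For 57 genes, 1 SAHA region overlapped exactly 1 diluent region at the start, and such pairs were compared (12775 genes in all had a pair). The exception was Snrpd3, which encodes a protein of the Sm ring that binds snRNA. Each library had 2 regions there, with 1970 and 1099 tags in SAHA (4166 and 2033 bp wide) and 1647 and 1251 tags in diluent (3750 and 1808 bp). Over the 57 genes the median count was 1502 tags in SAHA and 1695 in diluent, whereas over all paired genes it was 878 in SAHA and 952 in diluent. By diluent tags, 18 of 57 splicing factor genes (31.6%) lay in the top 10% of all paired genes.

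After scaling to filtered tags, most splicing factor genes had slightly fewer H3K4me3 tags in SAHA. The log2 ratio of SAHA over diluent was below 0 at 48 of 57 genes, where 57.1% of all paired genes were below 0. Its median was -0.10, compared with -0.04 over all paired genes. The lower values were small. The interval lay wholly below 0 at 29 of 57 genes, where 31% of all paired genes had such an interval. It lay wholly above 0 at 3 genes, Hnrnpc, Prpf19 and Srsf13b, where 22% of all did. No splicing factor gene was at least 1.5-fold lower in SAHA (2.25% of all), and 1, Srsf13b, was at least 1.5-fold higher (7.12% of all). Because most of these genes carry many tags, pairs with at least 2000 tags over both libraries were also compared, a limit chosen after the values were seen. Their median log2 ratio was -0.14 at 42 splicing factor genes and -0.06 at 5774 genes in all. Intervals narrow as tag counts rise, and the shares above were not compared within that limit.

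**Figure D1:**
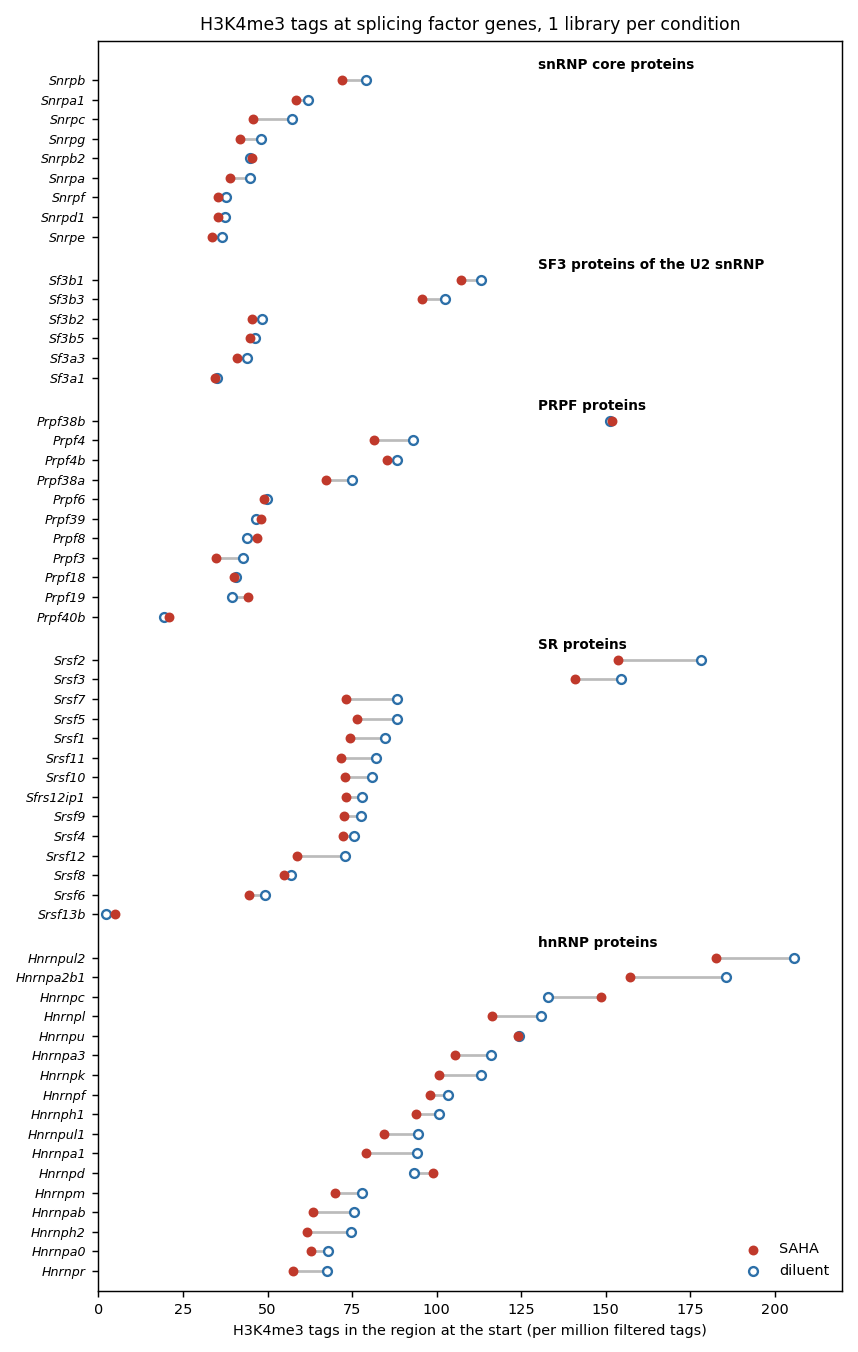
Each row is 1 splicing factor gene, grouped by family, and the horizontal axis gives the H3K4me3 tags in the region at its start per 1000000 filtered tags, with filled red points for SAHA and open blue points for diluent (1 library each, no error bars). The grey line joins both values. In most rows SAHA lies left of diluent by a small step. The hnRNP genes range between 57.6 and 183 in SAHA and between 67.7 and 206 in diluent, and Srsf13b is lowest at 4.90 in SAHA and 2.27 in diluent.

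The genes grouped by prefix as snRNP core, which include proteins particular to the U1 or U2 particle, had compact regions of moderate tag count. Across 9 paired genes the median was 894 tags in SAHA and 1008 in diluent, and the median width was 2422 bp in SAHA and 2237 bp in diluent. Snrpb, whose Sm protein is common to most spliceosomal snRNPs, carried the most tags of this family, 1544 in SAHA and 1773 in diluent. Snrpa1, a protein of the U2 particle, followed with 1252 in SAHA and 1387 in diluent. The lowest ratio of all 57 genes was at Snrpc, a U1 protein that contacts the 5′ splice site. It had 978 tags in SAHA and 1283 in diluent, a log2 ratio of -0.33 (interval -0.45 to -0.21), although its region was wider in SAHA, 2422 against 2237 bp. Snrpb2, a U2 protein, was the only snRNP gene with a ratio above 0 (0.02, interval -0.11 to 0.14), with 974 tags in SAHA and 1008 in diluent. Snrpb2 and Snrpe, an Sm protein gene, were among the 5 narrowest regions in diluent, at 1896 and 2151 bp in SAHA and 1826 and 1879 bp in diluent. The family's median log2 ratio was -0.11.

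The SF3 genes encode the U2 subcomplexes that clamp the branch point. All 6 had a ratio below 0 and a region wider in SAHA, by 90 to 283 bp. Their log2 ratios lay between -0.10 and -0.02, and only that of Sf3b3 had an interval wholly below 0 (-0.19 to -0.01). Sf3b1, the branch-point binding scaffold, had the most tags, 2298 in SAHA and 2538 in diluent, over 5102 bp in SAHA and 4819 bp in diluent. Sf3b3 followed with 2049 tags in SAHA and 2300 in diluent. Its region also held the start of Cog4, a Golgi trafficking gene, so its tags cannot be assigned to 1 of these genes. Sf3a3 had 1 of the 5 narrowest regions in diluent, 2109 bp in SAHA and 1899 bp in diluent.

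The PRPF genes, named after yeast pre-mRNA processing factors that act at several steps of splicing, had a median log2 ratio of -0.01, and 6 of 11 were below 0. Prpf38b, a relative of a yeast spliceosome activation factor, stood apart by width. Its region spanned 7196 bp in SAHA and 5316 bp in diluent, yet held 3252 tags in SAHA and 3394 in diluent, a log2 ratio of 0.00 (interval -0.07 to 0.07). Nearly all of the added width lay on the downstream side, where the region reached 5905 bp past the start in SAHA and 4111 bp in diluent. Prpf4, a tri-snRNP protein gene, had 1749 tags in SAHA and 2085 in diluent (log2 ratio -0.19, interval -0.28 to -0.10). Prpf3, its partner in the U4/U6 particle, had 745 tags in SAHA and 961 in diluent (-0.30, interval -0.44 to -0.16) and a region that was narrower in SAHA, 2169 against 2512 bp. Prpf19, the ubiquitin ligase that joins the spliceosome at activation, had 945 tags in SAHA and 888 in diluent, and its interval lay above 0 (0.02 to 0.29). Prpf8, the scaffold of the catalytic core, had 1003 tags in SAHA and 988 in diluent, and Prpf39 had 1030 in SAHA and 1043 in diluent. Prpf40b had 445 in SAHA and 436 in diluent. The intervals of these 3 genes included 0. Prpf18, a second-step factor, had the second narrowest region in diluent, 2305 bp in SAHA and 1617 bp in diluent, with 861 tags in SAHA and 910 in diluent.

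Of the genes grouped by prefix as SR proteins, 13 of 14 had a ratio below 0, and the interval was wholly below 0 at 9. The family's median was 1560 tags in SAHA and 1781 in diluent, with a median log2 ratio of -0.15. Srsf2, an exon-binding SR protein that stays in the nucleus, had 3291 tags in SAHA and 3997 in diluent (-0.22, interval -0.28 to -0.15), in a region that also held the start of Mfsd11. Srsf3, the smallest of the classical SR proteins, had 3017 in SAHA and 3466 in diluent (-0.13, interval -0.21 to -0.06). Its region was 865 bp wider in SAHA, 5806 against 4941 bp. Srsf7, which also acts in mRNA export, had 1567 in SAHA and 1978 in diluent (-0.27, interval -0.37 to -0.17). The gene listed as Srsf12 on chromosome 13, whose accessions RefSeq now names Srek1, had 1260 in SAHA and 1632 in diluent (-0.31, interval -0.42 to -0.20).

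Srsf13b, listed on chromosome 4 and named Srsf12 by RefSeq, differed from the other SR genes in tags, width and position. Its region held 105 tags in SAHA and 51 in diluent, a log2 ratio of 1.11 (interval 0.61 to 1.62). It was the narrowest region of the set, 903 bp in SAHA and 960 bp in diluent, and it began 243 bp past the listed start in SAHA and 140 bp past it in diluent. At the other 56 genes the start lay inside the region in both libraries. The counts at Srsf13b were the lowest among the 57 genes in both libraries, and the next lowest, at Prpf40b, were over 400.

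The hnRNP genes had the widest regions, the most tags and the lowest median ratio. Their median was 2099 tags in SAHA and 2259 in diluent, and their median log2 ratio was -0.16, with 15 of 17 below 0 and an interval wholly below 0 at 12. The median width was 5031 bp in SAHA and 4831 bp in diluent, where all paired genes had 2564 bp in SAHA and 2423 bp in diluent. By diluent width, 11 of 17 hnRNP genes lay in the widest 10% of all paired genes (at least 4371 bp), while 4 of the other 40 splicing factor genes did. Hnrnpul2, a relative of the nuclear scaffold protein hnRNP U, had the most tags of the set, 3914 in SAHA and 4613 in diluent, over 6860 bp in SAHA and 6118 bp in diluent. Hnrnpa2b1, an RNA packaging protein, had 3368 in SAHA and 4162 in diluent (-0.24, interval -0.31 to -0.17), over 6981 bp in SAHA and 6148 bp in diluent. Hnrnpl, which binds CA-rich RNA, had a region of 5951 bp in SAHA and 5658 bp in diluent. That of Srsf2 was also among the 5 widest in diluent, at 6075 bp in SAHA and 5903 bp in diluent.

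Hnrnpc, which binds uridine tracts and wraps long nascent transcripts, was the widest gene and did not follow the others in tags. It had 3183 tags in SAHA and 2979 in diluent (0.16, interval 0.09 to 0.23), over 8494 bp in SAHA and 6828 bp in diluent. Its SAHA region reached 8213 bp past the start and its diluent region 5640 bp, and its upstream edge lay 280 bp before the start in SAHA and 1187 bp before it in diluent. The SAHA list against IgG held a second region, chr14:52724015-52724900, just upstream of the compared region and also overlapping the diluent region, so the SAHA signal was called in 2 pieces. The single-library table gives no tag count for that second piece, and the SAHA values of Hnrnpc leave it out. Hnrnpd, an AU-rich element binding protein, had 2119 tags in SAHA and 2091 in diluent (0.08, interval -0.0034 to 0.17). Lower counts were seen at Hnrnph2, with 1319 in SAHA and 1676 in diluent (-0.28, interval -0.39 to -0.18), and at Hnrnpab, with 1357 in SAHA and 1695 in diluent (-0.26, interval -0.36 to -0.15). The region of Hnrnph2, a binder of G-runs, held the start of Gla on the opposite strand.

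Hnrnpa1, the most studied splicing silencer of the family, combined a lower count with a wider region. It had 1695 tags over 5434 bp in SAHA and 2110 tags over 4067 bp in diluent, a log2 ratio of -0.25 (interval -0.34 to -0.16). Expressed per kb, it held 312 tags in SAHA and 519 in diluent, a log2 ratio of -0.67, and it was the only splicing factor gene at least 1.5-fold lower by that measure (2.07% of all paired genes). Its region on chromosome 15 also held the start of Cbx5, which runs the opposite way. The symbol was listed at 2 more places, on chromosome X under an accession that RefSeq gives to the pseudogene Gm5643 (33 tags in SAHA, 37 in diluent) and on chromosome 13 (210 in SAHA, 233 in diluent). Hnrnpf, another binder of G-runs, had 3 listed starts with a region each. Besides the compared region at the middle start, it had 429 tags over 1907 bp in SAHA and 529 over 1747 bp in diluent at the first start, and 2219 over 5936 bp in SAHA and 2104 over 4310 bp in diluent at the last.

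Regions tended to be wider in SAHA while holding fewer tags. Width was greater in SAHA at 49 of 57 splicing factor genes, where 71.8% of all paired genes were wider. The median was 3518 bp in SAHA and 3166 bp in diluent, and the median difference was 195 bp, compared with 130 bp over all paired genes. Relative to region size the widening was alike, with a median log2 width ratio of 0.08 at splicing factor genes and 0.08 over all paired genes. At pairs with at least 2000 tags the median difference was 264 bp at splicing factor genes and 237 bp in all, and the median log2 width ratio was 0.10 in both. Regions both wider and with a tag ratio below 0 were found at 41 of 57 genes, where 35.2% of all paired genes had both. Tags per kb had a log2 ratio below 0 at 52 of 57 genes (69.7% of all paired genes), with a median of -0.22 at splicing factor genes and -0.12 over all paired genes. Per kb, 1 gene, Srsf13b, was at least 1.5-fold higher in SAHA (3.28% of all). Regions were at least 1 kb wider in SAHA at 5 of 57 genes (7.14% of all): Prpf38b by 1880 bp, Hnrnpd by 1865 bp, Hnrnpc by 1666 bp, Hnrnpu by 1386 bp and Hnrnpa1 by 1367 bp. Across the 57 genes the log2 ratios of tags and of width were related with r = -0.01 (Pearson) and rho = 0.12 (Spearman), while across 12775 genes these were 0.65 and 0.51. All points share the same 2 libraries, and the 57 splicing factor genes mostly have high counts and small ratios. Srsf13b lay far from the others, at 1.11 for tags and -0.09 for width, and r was not computed without it.

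**Figure D2:**
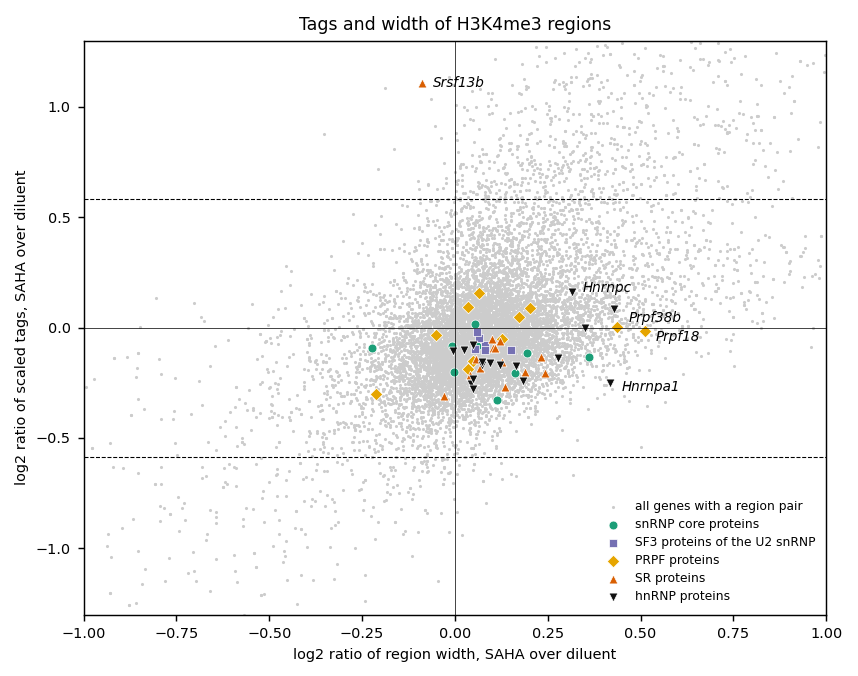
The horizontal axis is the log2 ratio of region width and the vertical axis the log2 ratio of scaled tags, both SAHA over diluent; grey points are all genes with a region pair (of 12775, 280 lie outside the axes), coloured symbols are splicing factor genes by family, and dashed lines mark 1.5-fold. Most coloured symbols lie right of 0 and below 0, and Srsf13b alone lies above the upper dashed line, at 1.11.

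The added width lay mainly on the downstream side. In SAHA the region ended farther downstream at 49 of 57 genes (72.5% of all paired genes) and began farther upstream at 33 of 57 (55.7% of all). The median shift was 170 bp downstream and 44 bp upstream, compared with 92 bp and 16 bp over all paired genes. All 17 hnRNP genes ended farther downstream in SAHA, by 33 bp at least and 400 bp at the median, and 8 of 17 began farther upstream. At Hnrnpk, however, the diluent list against IgG held a second region, chr13:58500719-58501199, that reached as far downstream as the SAHA region. Without Hnrnpk and Hnrnpc, whose regions were called in 2 pieces in 1 condition, 15 of 15 hnRNP genes ended farther downstream. Among snRNP core genes 7 of 9 ended farther downstream, with a median shift of 80 bp. Regions that were wider in diluent gained more width in SAHA (Pearson r 0.57, Spearman rho 0.50 over 57 genes, and 0.22 and 0.25 over all 12775).

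**Figure D3:**
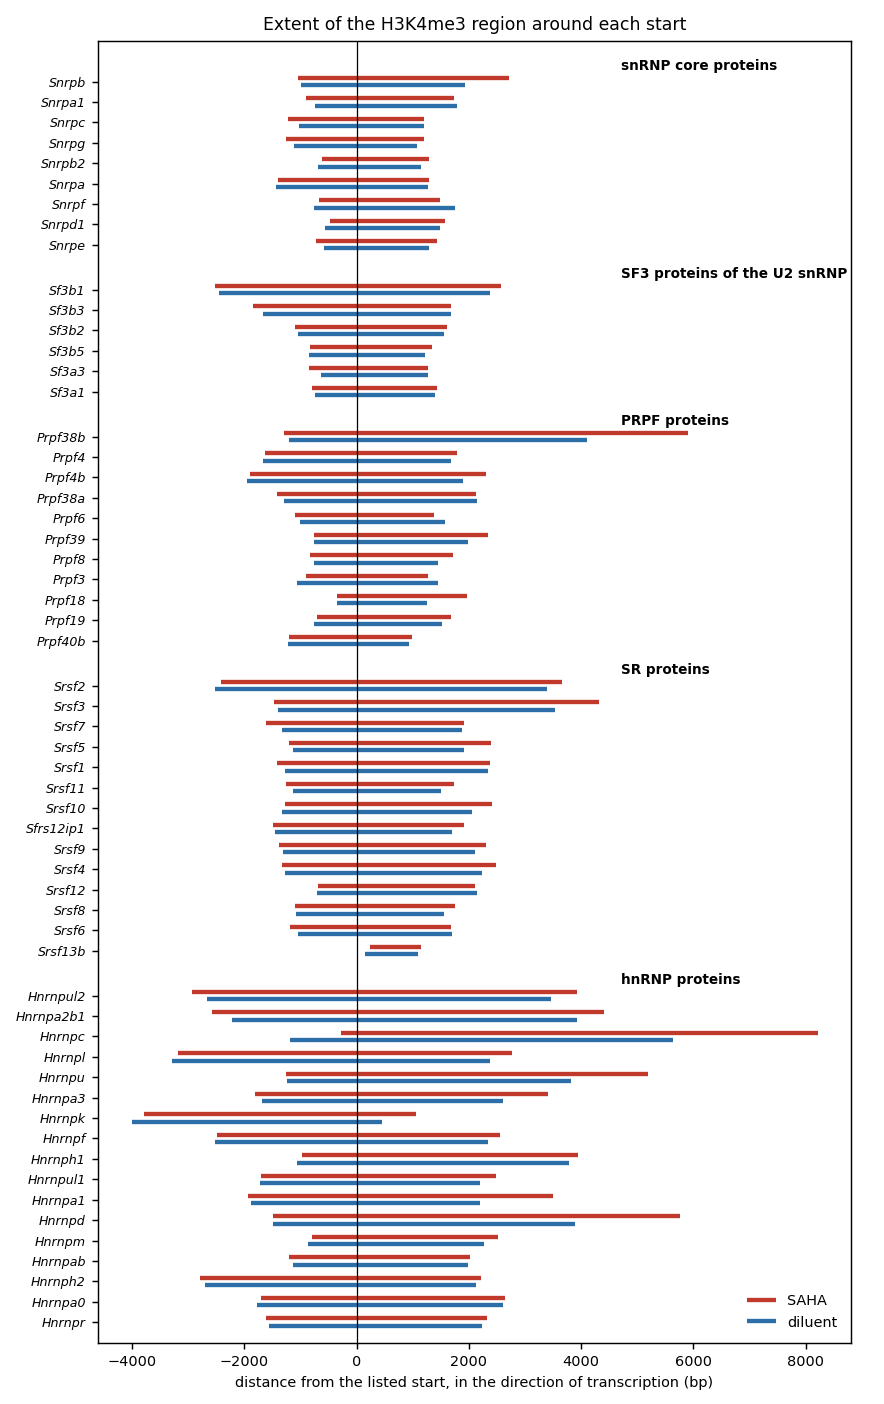
Each pair of bars shows the H3K4me3 region at 1 gene, red for SAHA above blue for diluent, along the distance in bp from the listed start in the direction of transcription. The red bars of Hnrnpc, Prpf38b and Hnrnpd reach 8213, 5905 and 5765 bp downstream, and the snRNP core genes have short bars in both conditions.

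The shares of splicing factor genes with a STAT3 region nearby were close to those of all listed genes. Within 5 kb of a listed start, 13 of 58 genes had a STAT3 region in SAHA (22.4%, exact Clopper-Pearson interval 12.5 to 35.3%) and 5 of 58 had one in diluent (8.62%, interval 2.86 to 19.0%). Over all listed genes the shares were 17.8% in SAHA and 6.19% in diluent, and among listed genes with H3K4me3 in both conditions they were 20% in SAHA and 6.99% in diluent. The larger SAHA count accompanied a longer SAHA list. With the lists cut to equal numbers of top-scoring regions the counts were 8 in SAHA and 5 in diluent. That cut was not applied to all listed genes, so no share stands beside these counts. Only Srsf4, an SR protein, had a region in both (1.74% of all listed genes), and its regions lay 3199 bp apart. None of the 14 SAHA and 5 diluent regions overlapped a STAT3 region of the other condition, and over all STAT3 regions within 5 kb of a listed start 4.0% in SAHA and 12.2% in diluent did. None overlapped a region of the IgG library, where 2 of 2849 in SAHA and 0 of 925 in diluent did. By family, 6 of 17 hnRNP genes, 4 of 14 SR genes, 2 of 11 PRPF genes, 1 of 6 SF3 genes and 0 of 10 snRNP core genes had a SAHA region.

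The highest-scoring region near a splicing factor gene in SAHA was at Prpf6, which bridges the U5 and U4/U6 particles. It lay at chr2:181335033-181336340 (mm9) over the start, with a MACS score of 104.94, rank 33 of 8552 in that list. The score is the authors' value for each region and is compared only within 1 list. It was also the only STAT3 region near these genes in the table called without a control, with 27 tags and a 6.3-fold enrichment. Hnrnph1, which binds G-runs near splice sites, came next, with a region at chr11:50189983-50190937 over the start, a score of 73.99 and rank 151. Regions over the start were also found at Prpf38b (score 53.03, chr3:108714034-108715017), Hnrnpf (50.99, chr6:117866434-117867318, at the last of its 3 starts) and Srsf3 (39.05, chr17:29169568-29170253).

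Another 5 SAHA regions lay within 1 kb of a start without covering it. That of Hnrnpul1 lay 683 bp away with a score of 47.71, and that of Hnrnpa1 158 bp away with 39.84. The list assigned the Hnrnpa1 region to Cbx5, whose start is shared. Regions at Hnrnpk, a binder of C-rich RNA, at Srsf5 and at Hnrnpa3 lay 474, 243 and 435 bp away, with scores of 33.55, 32.45 and 30.4. For Hnrnpk and Hnrnpa3 the nearest of several listed starts was used, and those taken for their H3K4me3 pairs lay over 1 kb away. The start of Rmi1 lay within 1 kb of the Hnrnpk region, and that of AK145430 within 1 kb of the Srsf5 region. The regions at Sfrs12ip1 (score 30.09), Srsf4 (30.81) and Sf3a3 (37.47) lay 1806, 2735 and 4643 bp from the start. Scores near 30 are at the lower limit of the list. A further SAHA region of score 40.18 lay 1153 bp from the Hnrnpa1 symbol listed on chromosome 13.

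In diluent, regions covered the starts of Hnrnpul2 (score 40.01, chr19:8893854-8894670), Snrpf (38.78, chr10:93052393-93053092) and Prpf39 (31.54, chr12:66136813-66137414). Those at Srsf4 (36.03) and Hnrnpu (36.26) lay 464 and 1641 bp downstream of the start. Prpf39 encodes a U1-associated factor and Snrpf an Sm protein. Of the STAT3 regions near splicing factor genes, 12 of 14 in SAHA (85.7%, interval 57.2 to 98.2%) and 5 of 5 in diluent (100%, interval 47.8 to 100%) overlapped an H3K4me3 region of the same condition in the lists against IgG. The 2 that did not were at Srsf4 and at the Hnrnpa1 symbol on chromosome 13. Over all STAT3 regions within 5 kb of a listed start the shares were 62.2% in SAHA and 63.7% in diluent, but these include genes with no H3K4me3 region.

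**Figure D4:**
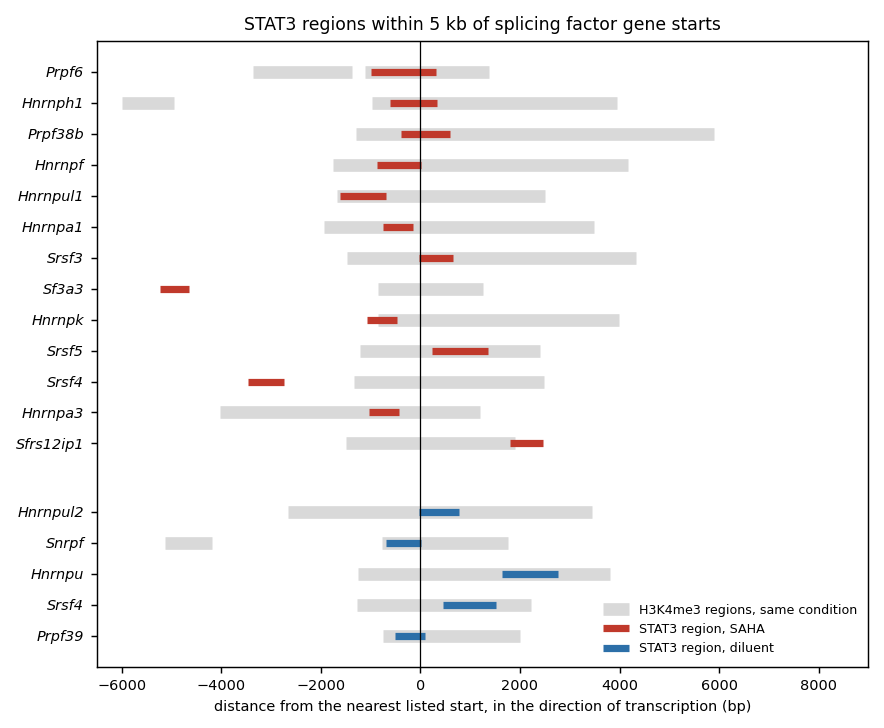
Each row is a gene with a STAT3 region within 5 kb, with SAHA rows (red) above diluent rows (blue), ordered by score, along the distance in bp from the nearest listed start in the direction of transcription. Grey bars are H3K4me3 regions of the same condition within 5 kb in the single-library tables. The SAHA region near the Hnrnpa1 symbol on chromosome 13, which overlaps no H3K4me3 region, is not drawn. Most STAT3 regions overlap a grey bar. Those of Srsf4 and Sf3a3 in SAHA lie 2735 and 4643 bp from the start, and that of Sf3a3 overlaps an H3K4me3 region of the list against IgG that is not drawn.

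Genes with a SAHA STAT3 region had wider H3K4me3 regions in both conditions. At the 13 genes the median width was 4844 bp in SAHA and 4067 bp in diluent, and at the 44 others it was 3153 bp in SAHA and 2880 bp in diluent. Widths were those of the compared pair, which did not overlap the SAHA STAT3 region at Hnrnpf, Sf3a3 and Srsf4. However, 6 of the 13 were hnRNP genes, the family with the widest regions, so this split also follows family. Among hnRNP genes, diluent widths were 3917 to 4865 bp at those with a SAHA STAT3 region and 3118 to 6828 bp at those without. The difference was therefore not seen within that family. In the other families, diluent widths were 1899 to 5316 bp with a SAHA STAT3 region and 960 to 5903 bp without. Whether a difference remained there was not tested. Over all paired genes the medians were 2959 bp in SAHA and 2727 bp in diluent for 2511 genes with a SAHA STAT3 region, and 2479 bp in SAHA and 2345 bp in diluent for 10264 without. The tag ratios were alike in size, with a median log2 ratio of -0.10 at the 13 genes and -0.11 at the 44.

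Beyond 5 kb, the lists assigned 23 H3K4me3 regions in SAHA and 19 in diluent to splicing factor genes, and 19 of the SAHA regions (82.6%) overlapped a diluent region, where 67.6% of all distant SAHA regions did. The 4 that did not lay at Hnrnpc, Srsf3, Hnrnpm and Hnrnpa3. Of these distant regions, 7 in SAHA and 5 in diluent were assigned to Hnrnpa3, a close relative of Hnrnpa2b1, at distances of 18259 to 74002 bp in SAHA and 18555 to 73473 bp in diluent. Distant STAT3 regions numbered 10 in SAHA and 1 in diluent, and none overlapped the other condition. Over all genes 2.16% of distant STAT3 regions in SAHA and 4.68% in diluent did. The distant diluent region was at Sf3b5. An assignment in the lists gives the gene named beside a region and no measured contact.

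RefSeq promoter windows, running between 250 bases before and 50 after a start on GRCm38.p6, were found for 53 splicing factor genes (71 windows, some overlapping). The regions above are on mm9, so matches in the windows were not placed inside them. Of 8 motifs searched on both strands, 3 are described first, TTCNNNGAA (the core that STAT proteins bind), CCGGAAGT (bound by ETS factors) and the NRF1 motif, written as GCGC, any base, then TGCGC. TTCNNNGAA was present in 4 of 53 genes (7.55%), Hnrnph1, Hnrnpa2b1, Hnrnpr and Snrpg, where 8.63% of genes with an H3K4me3 pair had it. CCGGAAGT was present in 12 of 53 genes (22.6%), where 8.65% of genes with a pair and 4.31% of all genes in the table had it. The NRF1 motif was present in 11 of 53 (20.8%), where 11.2% of genes with a pair and 5.19% of all had it. CCAAT was present in 28 of 53 genes (52.8%, against 42.8% of genes with a pair), GGGCGG in 36 (67.9%, against 68.9%) and TATAAA in 7 (13.2%, against 8.76%). The narrower STAT form TTCCNGGAA, a special case of the first motif, was present in 1 gene (1.89%, against 1.55% of genes with a pair), and the YY1 motif in 1 (1.89%, against 1.72%). The median observed-over-expected CpG was 0.92 in these windows, 0.74 in those of genes with a pair and 0.38 in all, while GC content was 60.3%, 60.7% and 52.7%.

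The windows of 4 genes are shown, each with a STAT3 region over or within 1 kb of a listed start and a match to 1 of the first 3 motifs. Only Hnrnph1 paired a STAT3 region within 1 kb with TTCNNNGAA, and the other 3 were chosen after their values were seen, Prpf6 as the highest-scoring region, Srsf5 for its pair of CCGGAAGT matches and Prpf39 as a diluent gene. Each is written 5′ to 3′ on the plus strand, with matches in capitals. Positions give the first base of a match, with the start of transcription as 1 and the base before it as -1.
Hnrnph1 chr11:50376740-50377039, TTCGGAGAA at -176: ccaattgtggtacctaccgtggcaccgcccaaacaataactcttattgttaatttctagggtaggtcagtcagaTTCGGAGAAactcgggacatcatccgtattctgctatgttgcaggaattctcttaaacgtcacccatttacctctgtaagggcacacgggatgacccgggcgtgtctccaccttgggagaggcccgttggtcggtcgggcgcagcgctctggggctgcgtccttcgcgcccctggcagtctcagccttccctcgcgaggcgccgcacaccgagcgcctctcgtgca
Prpf6 chr2:181601069-181601368, GCGCACGCGC at -105 and ACTTCCGG at 21: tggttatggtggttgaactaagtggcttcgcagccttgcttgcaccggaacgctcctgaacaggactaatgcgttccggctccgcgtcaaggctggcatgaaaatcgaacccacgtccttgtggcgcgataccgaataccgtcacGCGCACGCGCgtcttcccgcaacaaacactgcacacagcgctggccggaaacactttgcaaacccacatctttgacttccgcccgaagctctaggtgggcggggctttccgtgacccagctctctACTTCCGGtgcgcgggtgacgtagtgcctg
Srsf5 chr12:80945249-80945548, ACTTCCGG at -91 and CCGGAAGT at -23: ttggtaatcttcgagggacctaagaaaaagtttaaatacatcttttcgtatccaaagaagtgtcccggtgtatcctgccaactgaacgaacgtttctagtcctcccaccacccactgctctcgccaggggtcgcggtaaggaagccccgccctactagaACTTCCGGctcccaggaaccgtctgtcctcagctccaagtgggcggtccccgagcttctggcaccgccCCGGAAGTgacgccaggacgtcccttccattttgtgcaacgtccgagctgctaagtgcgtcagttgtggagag
Prpf39 chr12:65036084-65036383, GCGCGTGCGC at -13: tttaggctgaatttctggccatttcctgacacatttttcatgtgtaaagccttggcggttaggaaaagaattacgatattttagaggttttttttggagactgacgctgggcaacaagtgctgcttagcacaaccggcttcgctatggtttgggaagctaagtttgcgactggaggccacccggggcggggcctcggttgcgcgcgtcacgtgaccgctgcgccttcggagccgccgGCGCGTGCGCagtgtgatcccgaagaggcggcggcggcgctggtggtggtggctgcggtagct
A match describes letters in the window and not a bound site. The Hnrnph1 match lay in 1 of 5 RefSeq windows of that gene, the farthest upstream. The other 3 genes with TTCNNNGAA had no STAT3 region within 5 kb in either condition.

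Splicing genes whose symbols do not begin with the 6 prefixes were also examined, among them snRNP and hnRNP genes under other symbols such as Snrnp70 and Syncrip. Of 100 such symbols, a few of them older and newer names of 1 gene (such as Bat1a and Ddx39b), 87 were listed and 84 had a pair. The median log2 tag ratio of these 84 was -0.11, with -0.21 per kb, and over all paired genes it was -0.04, with -0.12 per kb. The ratio was below 0 at 70 of 84, where 57.1% of all paired genes were. None of the 84 passed 1.5-fold in either direction, where 2.25% of all were lower and 7.12% higher. Ptbp1, which represses exons through pyrimidine tracts, had the highest ratio, 0.33, with 3291 tags in SAHA and 2744 in diluent. Lsm4, a ring protein of the U6 particle, had the lowest, -0.46, with 487 tags in SAHA and 701 in diluent. STAT3 regions lay within 5 kb of 22 of the 87 genes in SAHA (25.3%, interval 16.6 to 35.7%) and of 8 in diluent (9.20%, interval 4.05 to 17.3%), with 1 gene in both. Over all listed genes the shares were 17.8% in SAHA, 6.19% in diluent and 1.74% in both. Among listed genes with H3K4me3 in both conditions they were 20% in SAHA and 6.99% in diluent.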

How the data were processed

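Mouse dendritic cells gave 5 ChIP-seq libraries, 1 per group, as the labels state. Per the submitters' processing notes, alignment was to mm9 with BWA. Per the file headers, MACS 1.4.0rc2 was run on each library alone, keeping up to 2 duplicate tags at a position and regions with a p-value under 1e-05. The deposited single-library tables give the tag count, fold enrichment (a ratio over local background) and score of each region. The authors' deposited lists against IgG give a MACS score and a gene, and the sources used here do not give how they were called.

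H3K4me3 regions overlapping 1 to 1 by at least 1 bp were paired, and each gene took the pair nearest any listed start within 5 kb (on ties, that with more tags). Tag counts were scaled to filtered tags, ratios carry exact conditional binomial 95% intervals, and differences past 1.5-fold were counted. Because regions were called separately in each library, their tags also reflect the called width. Intervals were tested on simulated data. The text names genes with a STAT3 region within 5 kb, the 8 highest and 8 lowest tag ratios, the 5 widest and 5 narrowest regions and the 2 genes with most diluent tags per family. The genes and lists were chosen with earlier results of these data known. All 58 genes matched RefSeq names. Scripts ran in pandas 2.3.3, scipy 1.17.1 and numpy 2.4.6 under Python 3.11.15.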

Additional observations from a re-analysis of the deposited data

How the results depend on the processing

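Of 50 alternative values, 43 stayed close to the reported value, 7 moved and 0 reversed. The tally is no measure of robustness, because many of these values could hardly change. Counts of genes with H3K4me3 stayed at 57 or 58 of 58, and no region near these genes overlapped an IgG region. For the median log2 tag ratio of -0.10, close meant within 0.10, a margin about as large as the ratio. The count of splicing factor genes with a STAT3 region, 13 in SAHA, was 8 when both lists were cut to equal numbers of top regions (5 in diluent), 8 with the top-scoring part of each list and 1 in the tables called without a control, and the diluent count of 5 was 0 in those tables. The tables without a control held 784 STAT3 regions in SAHA and 844 in diluent, where the lists held 8552 and 3507. These alternative counts were not taken over all listed genes. The cause was not tested. Per kb, the median log2 tag ratio was -0.22 instead of -0.10, and 1 gene instead of 0 was at least 1.5-fold lower. The median width difference was 247 bp instead of 195 bp when all regions touching the 5 kb window were summed. No paired analysis was possible because each group had 1 library, so neither the spread between samples nor a left-out library could be assessed. Without the 2 genes whose region was called in 2 pieces in 1 condition (Hnrnpc and Hnrnpk, an alternative chosen after seeing the data), the median log2 tag ratio was -0.10 and the width difference 190 bp. Of the STAT3 regions near these genes, only that of Prpf6 had a tag count.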
